A study of Mus musculus with 6 samples.

Results

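The clustered histone genes are the genes named Hist1h to Hist4h in the mouse, which lie together in 4 clusters and encode the core histones H2A, H2B, H3 and H4 and the linker histone H1. Members were chosen by name from the deposited table, without values, as every gene whose symbol starts with Hist1h, Hist2h, Hist3h or Hist4h. Of 55421 genes in the table, 69 matched, namely 6 H1, 20 H2A, 18 H2B, 12 H3 and 13 H4 genes, and 1 further row that its name marks as a pseudogene was left out. The GENCODE annotation on GRCm38 gives 2 of the 20 H2A genes, Hist1h2aj and Hist1h2al, as pseudogenes too.

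RNA-seq had been performed on bone marrow leukemia cells of C57BL/6 background. Hematopoietic stem and progenitor cells of Ddit4+/+ or Ddit4-/- mice had been infected with a retrovirus for AE9a, which is a truncated AML1-ETO fusion, and had been transplanted into recipients that then developed leukemia. The groups were AE9a-Ddit4+/+ (wild type, 3 libraries) and AE9a-Ddit4-/- (knockout, 3 libraries), so that the retroviral AE9a and the transplantation were common to both. The product of Ddit4 is made under stress and restrains mTOR. The sources do not say whether each library is a leukemia of its own, so p values measure the spread between these libraries, which may be technical. In the study's primary transplants, fewer mice with knockout cells developed leukemia than there are knockout libraries. If these libraries trace to those mice, some of them share a primary leukemia. By the study's methods, donors of both genotypes were young mice of the same age range. The part of Ddit4 that the knockout lacks and a sort before RNA extraction are not given for these samples in the sources used here.

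Most clustered histone genes are switched on when a cell enters S phase, because newly made DNA has to be wrapped around new nucleosomes. Nucleosomes hold H2A, H2B, H3 and H4, and H1 binds the DNA between them. Their mRNAs are peculiar in that they usually have no introns and no poly(A) tail. They end instead in a short stem-loop, which the stem-loop binding protein SLBP holds during 3′ end cutting, export and translation, and they are destroyed when DNA synthesis stops. Some members can also be transcribed past the stem-loop to a poly(A) site farther on, which is known from cells that leave the cell cycle. Such transcripts are kept by a library protocol that selects poly(A) tails, whereas the stem-loop ends are largely lost.

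The stem-loop was looked for in the annotated transcripts and is shown first, because it sets these mRNAs apart. It was found in 46 of the 69 members, within 22 to 59 bases after the stop codon, in 8 forms. The remaining 23 include members whose annotated transcript ends at or just after the stop codon, so that a missing match says that the letters are not in the annotated transcript. Each form is shown in a stretch of 26 bases for a member that carries it, with the 16 bases of the stem-loop in capitals (GENCODE transcripts, GRCm38, sense strand, 5′ to 3′).
Hist1h2bg (H2B, the form of 26 members of H1, H2A, H2B and H3): ccaaaGGCTCTTTTCAGAGCCaccca
Hist1h2bk (H2B, the form of 6 members): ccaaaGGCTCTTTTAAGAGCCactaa
Hist2h2ac (H2A, 1 member): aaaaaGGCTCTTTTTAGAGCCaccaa
Hist1h3g (H3, 1 member): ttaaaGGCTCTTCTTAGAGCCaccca
Hist1h4n (H4, the form of 7 H4 members): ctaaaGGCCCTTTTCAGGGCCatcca
Hist1h4i (H4, 2 members): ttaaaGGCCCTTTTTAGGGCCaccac
Hist1h4b (H4, 2 members): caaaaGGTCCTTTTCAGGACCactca
Hist1h4a (H4, 1 member): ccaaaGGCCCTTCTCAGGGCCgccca
The H4 forms differed from those of the other histones in the stem, and the 12 H4 members with a match shared no form with another histone.

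Promoters of 61 members could be matched in RefSeq (GRCm38.p6), where the 250 bases before the start of transcription were searched on both strands for 4 short motifs. The octamer ATTTGCAT, which POU2F1 (OCT1) binds and which is known from H2B promoters, was in 6 of 16 H2B and 7 of 18 H2A promoters and in 0 of 27 H1, H3 and H4 promoters, against 1.61% of all promoters in the table. CCAAT was in 50 of the 61, against 34.5% of all promoters, and in 3 of the 12 H4 promoters. TATAAA was in 28, against 13.0%. AAACACA, known from H1 promoters, was in 4 of 5 H1 promoters and 8 of the 61, against 6.22%. The promoters of an H2B gene with the octamer, an H2B gene without it and an H1 gene are shown with all motif letters in capitals, since the genes differ in the results below.
Hist1h2bg (chr13:23571150-23571399, plus strand): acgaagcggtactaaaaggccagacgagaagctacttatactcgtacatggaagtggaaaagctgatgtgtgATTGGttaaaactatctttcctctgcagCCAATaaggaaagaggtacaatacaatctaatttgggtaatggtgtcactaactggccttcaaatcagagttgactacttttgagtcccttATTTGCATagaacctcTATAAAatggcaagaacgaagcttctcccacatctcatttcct
Hist1h2bf (chr13:23574208-23574457, minus strand): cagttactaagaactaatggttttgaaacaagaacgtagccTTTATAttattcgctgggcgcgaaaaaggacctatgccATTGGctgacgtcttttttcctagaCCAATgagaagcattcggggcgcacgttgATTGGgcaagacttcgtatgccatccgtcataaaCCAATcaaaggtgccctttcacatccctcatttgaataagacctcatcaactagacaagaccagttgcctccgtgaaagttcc
Hist1h1b (chr13:21780626-21780875, minus strand): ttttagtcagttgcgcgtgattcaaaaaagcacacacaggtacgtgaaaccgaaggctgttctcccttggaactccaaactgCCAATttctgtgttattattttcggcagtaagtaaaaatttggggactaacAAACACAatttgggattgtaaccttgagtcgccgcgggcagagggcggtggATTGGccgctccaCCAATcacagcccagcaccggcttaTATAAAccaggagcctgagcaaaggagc
A match is a description of the sequence and does not show that a factor binds there.

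Library totals were 62141558 to 72717681 counts. Levels are given as CPM, counts per 1000000 of the library total after TMM scaling. The groups differed as whole transcriptomes, with correlations of log2 CPM across genes of 0.951 to 0.965 within and 0.791 to 0.846 between them. Mitochondrial genes took 5.03% to 7.9% of the counts in wild type and 11.31% to 16.45% in knockout libraries. Ddit4 was at 228, 161 and 342 CPM in wild type and at 84.9, 77.7 and 85.9 CPM in knockout libraries, lower by a log2 fold change of -1.56 (adjusted p 0.00635 in edgeR, SE 0.28), but still read. These are RNA levels, and the study reported by western blot that the protein was absent from knockout leukemia cells. The Y-linked Ddx3y was at 88.2 to 125 CPM in knockout and at most 0.0774 CPM in wild type, so the sex of the cells and the genotype cannot be told apart.

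The clustered histone genes had few reads and were on the whole lower in AE9a-Ddit4-/- cells. They held 0.0711%, 0.0522% and 0.104% of the counts in wild-type and 0.0428%, 0.034% and 0.0437% in knockout libraries. Summed over the 69 members, the level was 726, 497 and 1000 CPM in wild type and 427, 370 and 432 CPM in knockout. All 3 knockout sums lay below the lowest wild-type sum, and the log2 ratio of the group means was -0.86. This ratio was -0.58 without wild-type library 3 and -1.08 without wild-type library 2. Hist1h1c alone made up 46.9% to 58.6% of the sum in a library, and without it the sums were 256 to 430 CPM in wild type and 172 to 229 CPM in knockout.

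Of the 69 members, 61 had enough counts to be tested, and the other 8 had at most 20 counts in a library. In the filter on low counts, 0 of the 61 were over its limit in all wild-type and under it in all knockout libraries. Over it in all 6 libraries were 56, of which 10 are among the members called below. Hist1h4f was over it in 3 wild-type libraries and 1 knockout library, and Hist1h2af and Hist1h4k in 3 and 2. These genes would not have passed the filter by their knockout libraries alone. In edgeR's quasi-likelihood test, 11 of the 61 (18.0%) were lower past an adjusted p of 0.05, against 10.7% of all 18375 genes tested. Higher past the threshold were 0 of the 61 (0 at an unadjusted p below 0.05, and 0 with DESeq2), against 19.4% of all genes. The groups did not overlap in 36 members (59.0%) with knockout below wild type, where the share over all genes was 22.2%, and in 0 members the other way round, where it was 27.9%. At an unadjusted p below 0.05, 26 of the 61 members were lower, against 3197 of all 18375 genes. The fitted log2 fold change was negative in 54 of 61 members (88.5%, against 48.6% of all genes), and its median was -1.07 over the members and 0.04 over all genes. The count of 11 depended on single libraries, with 3 members (4.92%, against 6.05% of all genes) past the threshold without knockout library 1, 5 (8.06%, against 7.06%) without knockout library 2 and 5 (8.06%, against 5.61%) without wild-type library 3. The share of members called was thus near that of all genes without knockout library 1 or 2. Fewer cells that make histone mRNA and less of it per cell cannot be told apart in such bulk samples.

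**Figure D1:**
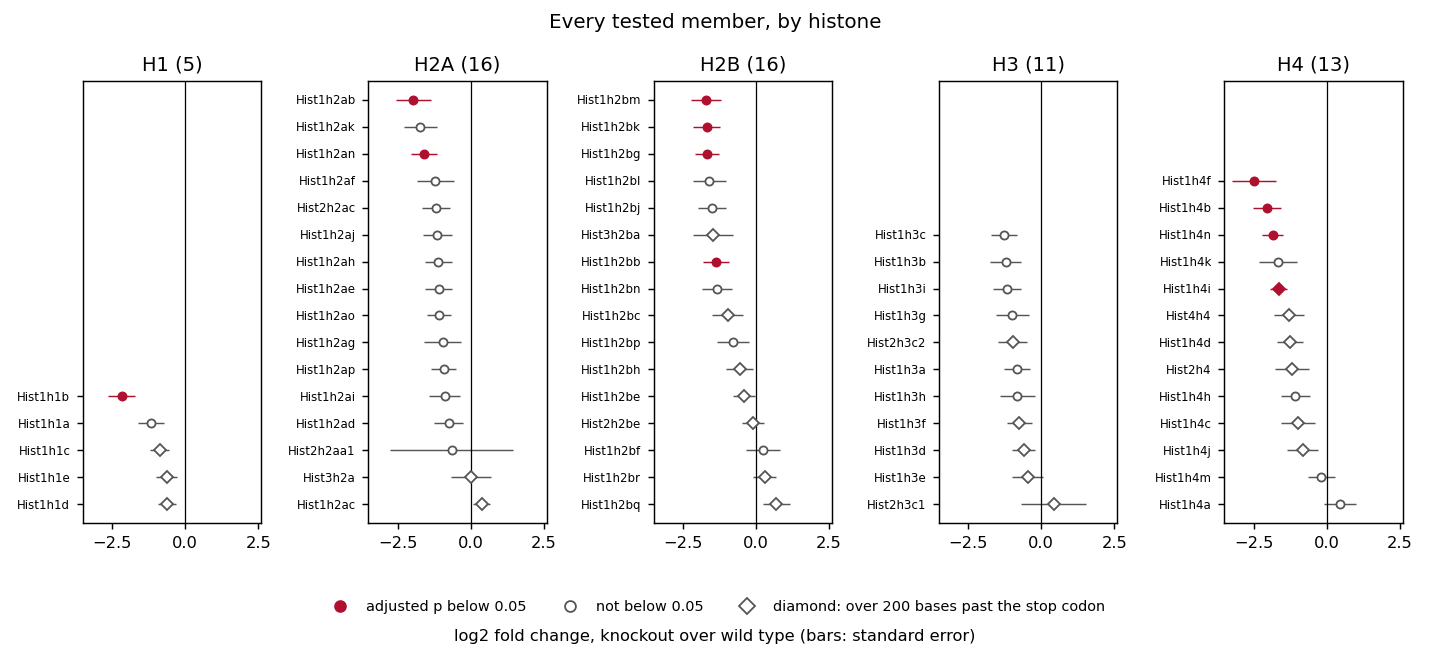
Log2 fold changes (knockout over wild type, x axis) with standard errors of the 61 tested members in 5 panels by histone, sorted by size. Filled red marks the 11 members with an edgeR adjusted p below 0.05, all to the left of 0, and diamonds mark members whose annotated transcript runs over 200 bases past the stop codon.

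Among the linker histones, the H1 genes, 1 of 5 tested was past the threshold (20.0%, against 10.7% of all genes), namely Hist1h1b. Hist1h1b (H1.5, chr13:21779883-21780625, minus strand) was at 5.86, 7.99 and 4.87 CPM in wild type and at 0.915, 2.07 and 1.17 CPM in knockout libraries. All knockout values lay well under all wild-type values. Mean levels were 6.24 ± 1.59 CPM and 1.39 ± 0.609 CPM (SD, n = 3 each), with a log2 fold change of -2.17 (adjusted p 0.0114 in edgeR, SE 0.46), and the call held without any single library. The promoter of this gene, shown above, holds the AAACACA motif, CCAAT and TATAAA.

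Hist1h1c (H1.2, chr13:23738808-23740367, plus strand) had the highest level of all members, also per length, with a mean of 255 CPM per kb of exon in wild type. It was at 384, 241 and 570 CPM in wild type and at 250, 198 and 202 CPM in knockout libraries. Wild-type library 2 lay below the highest knockout library, so the groups overlapped. The log2 fold change of -0.88 (adjusted p 0.0698 in edgeR, SE 0.31) missed the threshold. Without wild-type library 2 it was -1.14 and passed (adjusted p 0.0138), and without wild-type library 3 it was -0.53. Hist1h1d (H1.3) was at 9.12, 10.6 and 13.4 CPM in wild type and at 5.62, 7.87 and 7.89 CPM in knockout, a log2 fold change of -0.63 (adjusted p 0.166). Hist1h1e (H1.4) was at 6.63, 7.57 and 9.10 and at 3.82, 6.42 and 4.69 CPM, a log2 fold change of -0.64 (adjusted p 0.204). For both genes the groups did not overlap, yet neither passed the threshold. Hist1h1a (H1.1) had a log2 fold change of -1.17 (adjusted p 0.0797), and the testis histone Hist1h1t, with at most 20 counts in a library, was not tested.

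Of the 20 H2A genes, 16 were tested, 2 (12.5%, near the 10.7% of all genes) were lower past the threshold and the median log2 fold change was -1.08. Hist1h2ab (chr13:23751126-23751598, plus strand) was at 0.966, 2.03 and 2.04 CPM in wild type and at 0.273, 0.280 and 0.734 CPM in knockout libraries. Its highest knockout value lay just under its lowest wild-type value, and the log2 fold change was -1.96 (adjusted p 0.0469 in edgeR, SE 0.61). Hist1h2an (chr13:21786826-21787218, minus strand) was at 1.79, 2.40 and 2.48 CPM in wild type and at 0.530, 0.971 and 0.707 CPM in knockout libraries. These groups lay apart, with a log2 fold change of -1.59 (adjusted p 0.0337 in edgeR, SE 0.45). Neither call was stable. Hist1h2ab lost the threshold without wild-type library 2 or 3 or knockout library 1 or 2 (edgeR adjusted p 0.0917 to 0.142), and Hist1h2an without any wild-type library or knockout library 1 or 3 (0.0527 to 0.107).

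The H2A genes with the most counts behaved differently. Hist3h2a, at chr11:58954685-58956830, was at 23.3, 3.82 and 41.1 CPM in wild type and at 24.9, 21.7 and 22.6 CPM in knockout libraries. The wild-type values spread widely around the narrow range of the knockout values, and the log2 fold change was 0.02 (SE 0.69, adjusted p 0.985). It was 0.77 without wild-type library 3 and -0.48 without wild-type library 2, and it turned to -0.04 with library totals alone as the scaling. Hist1h2ac was at 9.80, 9.39 and 10.6 CPM in wild type and at 16.3, 9.45 and 12.8 CPM in knockout libraries. Here the groups overlapped with the knockout mean above the wild-type mean, and the log2 fold change was 0.38 (SE 0.30, adjusted p 0.379). Hist1h2ap was at 2.68, 4.13 and 4.07 and at 1.25, 2.17 and 2.31 CPM, with no overlap and a log2 fold change of -0.92 (adjusted p 0.146). Hist3h2a and Hist1h2ac are the 2 H2A members whose annotated transcript runs over 200 bases past the stop codon, and they were the 2 of 16 with a positive value.

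Of the 18 H2B genes, 16 were tested and 4 were lower past the threshold (25.0%, against 10.7% of all genes), namely Hist1h2bg, Hist1h2bk, Hist1h2bm and Hist1h2bb. The median log2 fold change over the 16 tested was -1.14. Hist1h2bg (chr13:23571396-23572013, plus strand) was the most abundant of the 4, at 28.7, 27.6 and 70.2 CPM in wild type and 11.9, 11.6 and 16.1 CPM in knockout libraries. Wild-type library 3 stood far above the other wild-type libraries, and all knockout values lay below all of them. Mean levels were 42.2 ± 24.3 CPM and 13.2 ± 2.52 CPM (SD, n = 3 each), and the log2 fold change was -1.67 (adjusted p 0.0196 in edgeR, SE 0.41). It was -1.09 without wild-type library 3 and lost the threshold without knockout library 1 or 2 (adjusted p 0.0713 and 0.0658).

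Hist1h2bk (chr13:22035870-22036345, plus strand) was at 4.67, 3.61 and 3.73 CPM in wild type and at 0.723, 1.27 and 1.75 CPM in knockout libraries, with a log2 fold change of -1.68 (adjusted p 0.0295 in edgeR, SE 0.46). Hist1h2bm (chr13:21722044-21722567, plus strand) was at 1.68, 1.53 and 1.15 CPM and at 0.241, 0.543 and 0.544 CPM, with a log2 fold change of -1.71 (adjusted p 0.0435 in edgeR, SE 0.52). Hist1h2bb was at 2.64, 3.90 and 4.12 CPM and at 0.948, 1.78 and 1.39 CPM, with a log2 fold change of -1.37 (adjusted p 0.0489 in edgeR, SE 0.44). In all 3 genes the groups lay apart. Hist1h2bm and Hist1h2bb lost the threshold when any single library was left out (adjusted p 0.0691 to 0.118 and 0.0608 to 0.141), and Hist1h2bk without wild-type library 1 or 3 or knockout library 1 or 2 (0.0651 to 0.0815).

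Hist1h2bc (chr13:23684199-23692908, plus strand), the H2B gene with the most counts, was at 118, 23.5 and 99.6 CPM in wild type and at 39.7, 32.5 and 51.8 CPM in knockout libraries. Wild-type library 2 was the lowest of all 6 libraries while the other wild-type libraries were the highest. The log2 fold change of -0.96 (SE 0.53, adjusted p 0.214) missed the threshold, and without wild-type library 2 it was -1.39 and passed (adjusted p 0.00833). Hist2h2be was at 12.2, 9.36 and 19.8 CPM and at 11.3, 9.78 and 17.1 CPM, with overlapping groups and a log2 fold change of -0.11 (SE 0.38, adjusted p 0.845), which turned to 0.24 without wild-type library 3.

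A comparison of the H2B genes by promoter was made after their values had been seen. Among H2B genes with a matched promoter, 4 tested genes hold the octamer in it. They were the 4 past the threshold, with log2 fold changes from -1.71 to -1.37. As given above, each of these 4 calls depended on single libraries. Of the 10 tested H2B genes with a matched promoter but no octamer, 0 were past it, at values from -1.59 to 0.70 with a median of -0.67. Among the 10, Hist1h2bl, Hist1h2bj and Hist1h2bn had -1.59, -1.50 and -1.33 (edgeR adjusted p 0.0702, 0.0539 and 0.0857), and Hist1h2bp had -0.78. By the annotation, Hist1h2be, Hist3h2ba, Hist1h2br, Hist1h2bq and Hist1h2bh run 213 to 1906 bases past the stop codon. That is farther than in any of the 4 matched genes with the octamer. Hist1h2bf, whose promoter is shown above, was at 0.522, 0.265 and 0.774 CPM in wild type and at 0.418, 0.757 and 0.680 CPM in knockout, a log2 fold change of 0.25 (adjusted p 0.781). Among H2A genes, 1 of 6 with and 1 of 9 without the octamer were past the threshold, with medians of -1.10 and -0.95. The difference by octamer was not tested and was not separated from the transcript end. The promoters of Hist1h2bc and Hist2h2be were not among those matched. Their H2A neighbors Hist1h2ac and Hist2h2ac start 251 and 239 bases away on the opposite strand. In both, the matched H2A window holds the octamer, in the DNA between the 2 starts. Hist1h2bc and Hist2h2be thus have an octamer nearby too, and at -0.96 and -0.11 they did not pass (edgeR adjusted p 0.214 and 0.845).

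Of the 12 H3 genes, 11 were tested and 0 passed the threshold in edgeR's test. At an unadjusted p below 0.05, 2 of the 11 were lower and 0 higher, against 3197 and 4591 of all 18375 genes. The median log2 fold change of the 11 was -0.83. In 6 of 11 (54.5%, against 22.2% of all genes) the knockout libraries all lay below the wild-type libraries. Hist1h3c (chr13:23744973-23745602, minus strand) was at 3.31, 5.33 and 3.59 CPM in wild type and at 1.09, 2.01 and 1.96 CPM in knockout libraries. The groups lay apart, with a log2 fold change of -1.27 (adjusted p 0.0629 in edgeR, SE 0.44). Hist1h3d was at 3.42, 4.66 and 5.31 CPM and at 2.31, 2.58 and 3.92 CPM, with overlapping groups and a log2 fold change of -0.60 (adjusted p 0.290). Hist1h3a was at 3.07, 4.94 and 3.30 CPM and at 1.27, 2.75 and 2.32 CPM, with no overlap and a log2 fold change of -0.83 (adjusted p 0.202). By the longest annotated coding sequence of each gene, the H3 genes encode 3 different proteins, and 7 of the 12 encode the same protein. Of the 3 proteins, 1 rests on Hist2h3c1 alone. This gene has 2 annotated transcripts, and its longest coding sequence is 543 bases, against 408 in the other H3 genes.

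The H4 genes all encode a single protein, of 103 codons with the initiator, so that their 13 loci differ in DNA and not in product. All 13 were tested, 4 were lower past the threshold (30.8%, against 10.7% of all genes) and the median log2 fold change was -1.25. Hist1h4i (chr13:22040636-22041362, minus strand) had the most counts, at 23.9, 21.8 and 29.4 CPM in wild type and 6.01, 7.46 and 10.6 CPM in knockout libraries. The groups lay far apart, with means of 25.0 ± 3.89 and 8.03 ± 2.36 CPM (SD, n = 3 each) and a log2 fold change of -1.64 (adjusted p 0.00654 in edgeR, SE 0.30). This member stayed past the threshold under all 15 alternatives, at -1.94 to -1.46.

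Hist1h4n (chr13:21831767-21832196, minus strand) was at 4.76, 4.82 and 4.39 CPM in wild type and at 1.19, 1.53 and 1.14 CPM in knockout libraries, a log2 fold change of -1.85 (adjusted p 0.00918 in edgeR, SE 0.37). Hist1h4b was at 1.35, 1.39 and 1.42 CPM and at 0.241, 0.395 and 0.367 CPM, a log2 fold change of -2.04 (adjusted p 0.0159 in edgeR, SE 0.48). Both had narrow and separate groups, and Hist1h4b lost the threshold without knockout library 1 (adjusted p 0.0570). Hist1h4f (chr13:23551258-23551648, minus strand) had the most negative value of the 61, at 0.380, 1.09 and 1.02 CPM and at 0.241, 0.148 and 0.0544 CPM, a log2 fold change of -2.48 (adjusted p 0.0426 in edgeR, SE 0.76). With at most 15 counts in a knockout library this value is imprecise, and it lost the threshold without wild-type library 2 or 3 or any knockout library (adjusted p 0.0608 to 0.119). Hist1h4d was at 2.23, 3.32 and 3.05 CPM and at 1.49, 0.774 and 1.33 CPM, with no overlap and a log2 fold change of -1.25 (adjusted p 0.0697). Hist1h4a and Hist1h4m stood apart from the other H4 genes, with log2 fold changes of 0.47 and -0.18 that did not pass (adjusted p 0.554 and 0.802).

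**Figure D2:**
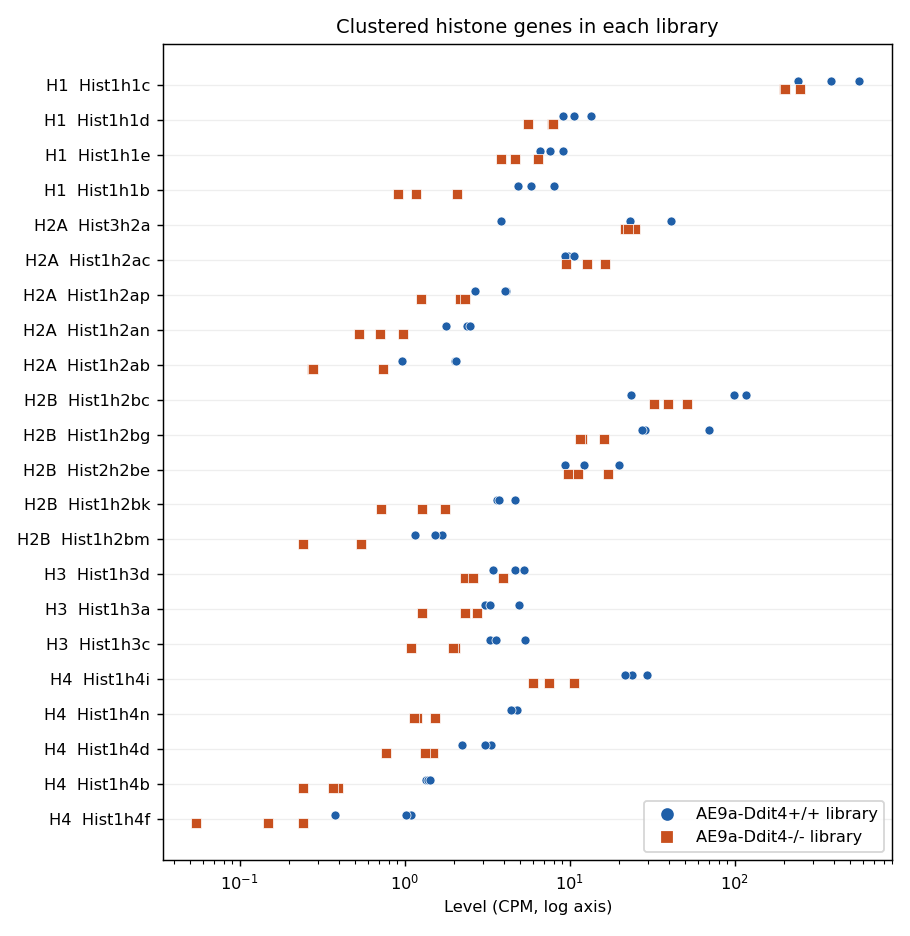
Level in CPM (log x axis) of 22 members in each of the 6 libraries, grouped by histone, with circles for AE9a-Ddit4+/+ and squares for AE9a-Ddit4-/- libraries. For Hist1h4i, Hist1h4n, Hist1h4b, Hist1h1b and Hist1h2bg the squares lie to the left of all circles, whereas for Hist3h2a, Hist1h2ac and Hist2h2be they overlap.

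Per kb of exon, H1 genes had a median of 8.40 CPM in wild type, H2A genes 4.20, H2B genes 3.96, H3 genes 3.04 and H4 genes 2.52 CPM over the tested members. In knockout the medians were 2.58, 2.07, 2.41, 1.64 and 1.04 CPM. These levels depend on the annotated gene length, and they ranged from 0.478 (Hist2h4) to 255 CPM per kb (Hist1h1c) in wild type. The summed level of H4 genes was 41.0, 45.0 and 50.2 CPM in wild type and 15.6, 15.8 and 20.4 CPM in knockout, and that of H3 genes was 21.9, 30.4 and 27.0 and 12.6, 15.6 and 18.8 CPM. For H2A genes it was 52.4, 48.4 and 83.2 and 50.4, 43.4 and 54.4 CPM, and for H2B genes 197, 98.0 and 235 and 86.0, 76.8 and 117 CPM, so in both the groups overlapped. For H1 genes, mostly Hist1h1c, it was 413, 275 and 604 and 263, 218 and 221 CPM. In H4, H3 and H1 genes no knockout sum reached a wild-type sum.

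Members were also set apart by how far the annotated transcript runs past the stop codon, whether or not the stem-loop was found in it. By the annotation, 24 members run over 200 bases past the stop codon, among them Hist1h1c, Hist1h2bc, Hist3h2a, Hist2h2be and Hist1h2ac, and 45 do not, which includes both pseudogenes. Of the short-ended members, 38 were tested, 10 (26.3%) were lower past the threshold and the median log2 fold change was -1.18. Of the long-ended members, 23 were tested, 1 (4.35%), Hist1h4i, was lower past the threshold and the median was -0.64. In 28 of 38 short-ended (73.7%) and 8 of 23 long-ended members (34.8%) the knockout values were all under the wild-type values. Over all genes, 10.7% were lower past the threshold and 22.2% had all knockout values under the wild-type values. Within each histone the short-ended members had the lower median, at -1.67 against -0.64 in H1, -1.09 against 0.20 in H2A, -1.50 against -0.41 in H2B, -1.08 against -0.60 in H3 and -1.67 against -1.22 in H4. Some sets were small, with 2 short-ended and 3 long-ended H1 members tested, and 14 and 2 H2A members. By summed CPM the H4 members went the other way, with log2 ratios of -1.13 for short-ended and -1.51 for long-ended members. In the other histones the short-ended ratio was the lower. The difference between these sets was not tested, and Hist1h2bg and Hist1h2ae, at 200 and 199 bases, lie right at the limit. Which end a read came from is not visible in counts per gene, so the annotation stands in for it.

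**Figure D3:**
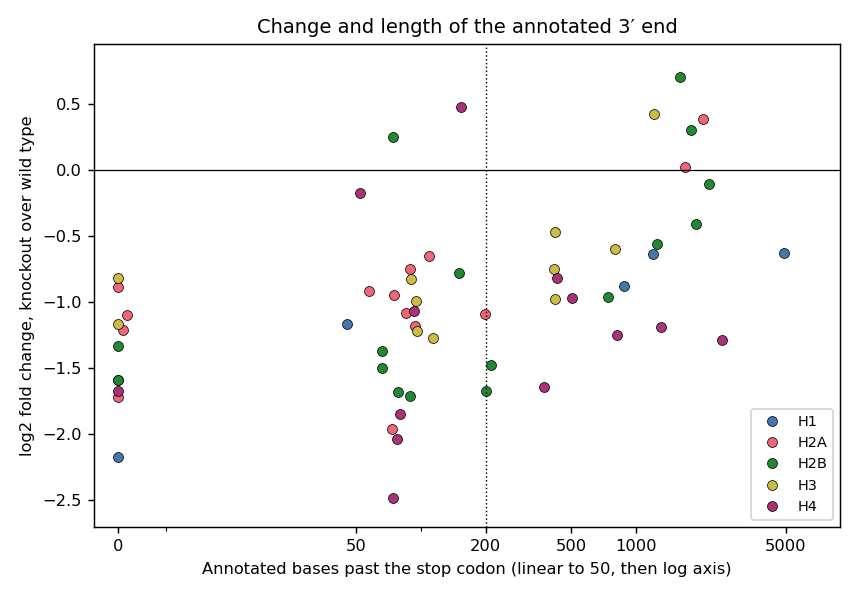
Log2 fold change (knockout over wild type, y axis) of the 60 tested members with an annotated stop codon against the bases that the annotated transcript runs past it (x axis, linear to 50 and then logarithmic), colored by histone, with a dotted line at 200 bases. The lowest values lie left of the line, and 5 of the 7 positive values lie right of it.

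The libraries of a group also ranked differently for the short-ended and long-ended members. The short-ended members summed to 107, 132 and 163 CPM in wild-type libraries 1, 2 and 3 and to 39.5, 52.6 and 66.3 CPM in knockout libraries. All wild-type sums were thus well above all knockout sums. The long-ended members without Hist1h1c summed to 235, 124 and 267 CPM in wild type and to 137, 119 and 163 CPM in knockout. Here wild-type library 2 lay among the knockout libraries, as it did for Hist1h1c. Wild-type library 2 had the highest wild-type value in 19 of 38 short-ended members and the lowest in 6, whereas it had the highest in 5 and the lowest in 10 of 23 long-ended members. In knockout, library 1 had the lowest value in 26 of 38 short-ended and 8 of 23 long-ended members.

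**Figure D4:**
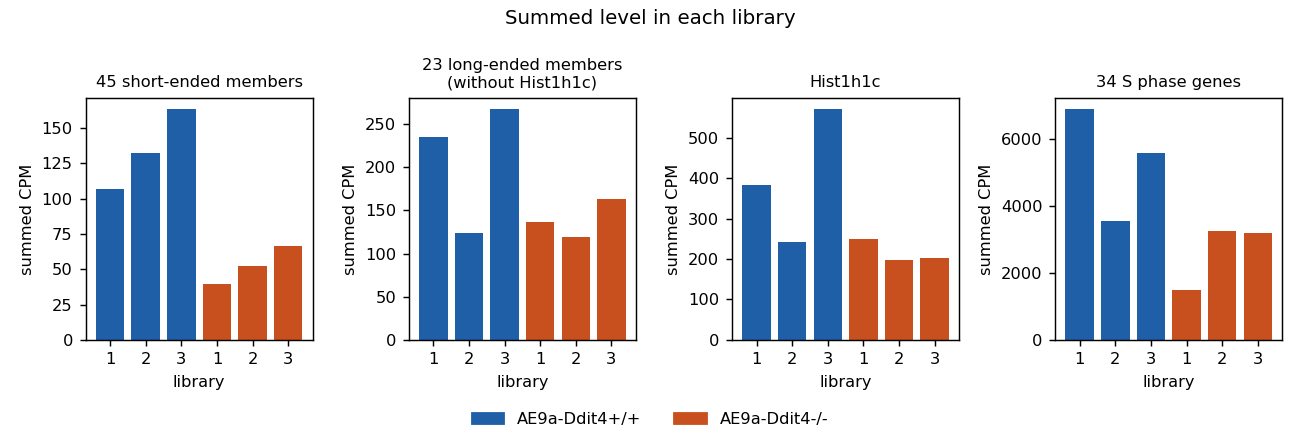
Summed CPM (y axes from 0, with a scale for each panel) in each library for the 45 short-ended members, the 23 long-ended members without Hist1h1c, Hist1h1c and 34 S phase genes, in blue for AE9a-Ddit4+/+ and orange for AE9a-Ddit4-/- libraries. The short-ended sums of 107 to 163 CPM in wild type do not meet those of 39.5 to 66.3 CPM in knockout, while wild-type library 2 is low in the other 3 panels.

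The members past the threshold all lay in the Hist1 cluster on chromosome 13. There 11 of 52 tested members were called (21.2%, against 10.7% of all genes), against 0 of 9 outside it (2 lower at an unadjusted p below 0.05). At a share of 10.7%, 0 of so few members says little about location. The medians were -1.08 and -0.98, so the location of the calls was not matched by a difference in the median. Hist1 falls into 2 stretches here. The stretch from 21715763 to 22043676 had 24 members, all tested, with 6 lower (25.0%) and a median of -1.16. That from 23531050 to 23934851 had 31 members, of which 28 were tested, with 5 lower (17.9%) and a median of -0.97. The pseudogene Hist1h2al lies far from both. The Hist3 cluster on chromosome 11 had 2 members, Hist3h2a and Hist3h2ba, and the groups overlapped in both.

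In the clusters, H2A and H2B genes often start side by side on opposite strands and share the DNA between them. There were 13 such pairs with starts 176 to 306 bases apart, and in 12 both genes were tested. Both values were negative in 8 pairs, and the signs differed in 4. In the pair Hist1h2ao and Hist1h2bq the H2A gene had means of 3.20 and 1.51 CPM in wild type and knockout, and the H2B gene 3.35 and 5.43 CPM, with log2 fold changes of -1.08 and 0.70. Hist1h2ap and Hist1h2br, the nearby copies of these genes, had -0.92 and 0.30. Hist1h2ac and Hist1h2bc differed the other way, at 0.38 and -0.96. Of these 6 genes, 0 passed the threshold in edgeR's test (1, Hist1h2ao, at an unadjusted p below 0.05, and the differences within pairs were not tested). Over the 12 pairs, the median of the H2B minus the H2A value was -0.08.

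**Figure D5:**
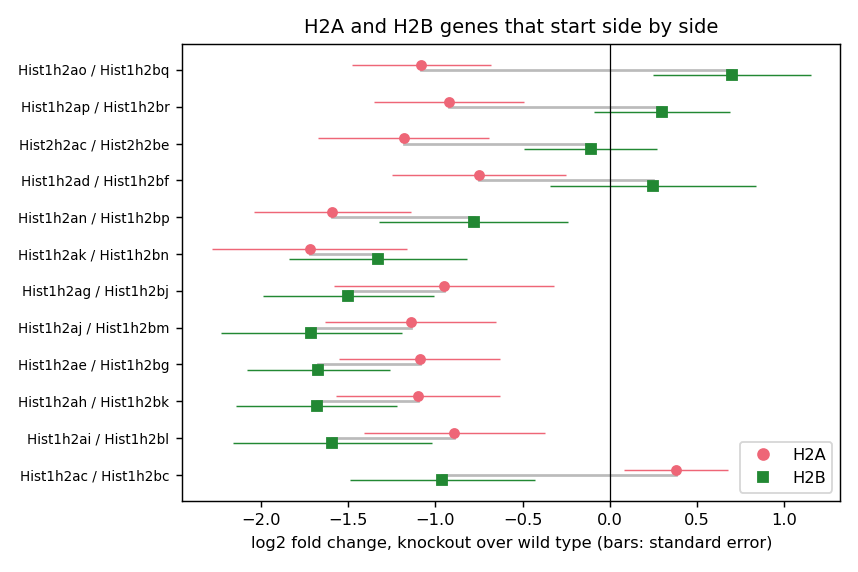
Log2 fold changes (knockout over wild type, x axis) with standard errors of H2A (circles) and H2B genes (squares) in the 12 pairs that start within 306 bases of each other on opposite strands. In 8 pairs both lie left of 0, and in Hist1h2ao and Hist1h2bq, Hist1h2ap and Hist1h2br, Hist1h2ad and Hist1h2bf, and Hist1h2ac and Hist1h2bc they lie on different sides.

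Several members are near-identical, and how reads that match more than 1 copy were assigned is not stated, so values of single copies are uncertain. In 25 of the 69 members fewer than 50% of the 100-base windows of the transcript occur in no other member. Of the 38 tested members with at least 50% of such windows, 7 (18.4%) were lower past the threshold (median log2 fold change -0.98). Of the other 23, 4 (17.4%) were lower, with a median of -1.10. The share over all genes was 10.7%. Hist1h4n and Hist1h4m have the same coding DNA, with 19.3% and 11.9% of windows of their own, and differed at -1.85 and -0.18. Their sum was 6.25, 7.21 and 5.97 CPM in wild type and 2.33, 3.85 and 2.50 CPM in knockout, with no overlap and a log2 ratio of -1.16. Hist2h2aa1 was read at 2.77 and 2.48 CPM in wild-type libraries 2 and 3 and at 3.33 CPM in knockout library 3, but had 0 counts in the other 3 libraries. Its identical neighbor Hist2h2aa2 had at most 12 counts in a library, so that the sum of the copies jumped in the same way. Summed, Hist1h2bq and Hist1h2br were at 5.35, 10.1 and 7.09 CPM in wild type and at 11.6, 7.33 and 12.7 CPM in knockout, with overlap and a log2 ratio of 0.49.

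RNAs that carry no poly(A) tail were at or near 0 in these libraries, and the part of library selection in the histone values was not tested. The labels name an mRNA kit, whereas the study's methods name rRNA-depleted RNA. The 7SK RNA gene Rn7sk was at 0.462 to 2.54 CPM, and the signal recognition particle RNA genes Rn7s1 and Rn7s2 at 0.150 to 1.45 CPM, in all 6 libraries. Rmrp, Rpph1, Terc, Rny1, Rny3, Rnu7, Rnu11 and Rnu12 were at most 0.588 CPM. In the list of 11 such RNAs, 4 of the genes could be tested and 0 passed the threshold (0 at an unadjusted p below 0.05), with values of -0.72 for Rn7s2, -0.71 for Rn7s1 and 0.48 for Rnu12 (edgeR adjusted p 0.562, 0.567 and 0.611). Malat1 and Neat1, long RNAs that end in a triple helix, were at 389 to 998 and 37.3 to 296 CPM and had log2 fold changes of -0.06 (adjusted p 0.917) and -0.77 (0.413), of which that of Malat1 turned to 0.40 without wild-type library 3. Neat1 passed without wild-type library 1, at -1.26 (adjusted p 0.0493).

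Genes that transcribe histone genes and form the 3′ ends of their mRNAs were lower in part. Of 20 such genes, 19 were tested, and 5 were lower (26.3%, against 10.7% of all genes) and 0 higher (against 19.4%) past the threshold. At an unadjusted p below 0.05, 2 were higher, and the median was -0.28. Slbp, which binds the stem-loop, was at 144, 86.9 and 134 CPM in wild type and at 33.9, 48.9 and 58.1 CPM in knockout libraries. The groups lay apart, and the log2 fold change was -1.37 (adjusted p 0.0102 in edgeR, SE 0.28), held without any single library. Ccne2, a cyclin E that with its kinase activates NPAT at the start of S phase, fell from 28.7 ± 5.60 to 10.9 ± 3.52 CPM (SD, n = 3 each, log2 fold change -1.39, SE 0.33, edgeR adjusted p 0.0167). Ccne1, the other cyclin E, and Coil, the scaffold of Cajal bodies, were also lower, at -1.57 and -1.04 (adjusted p 0.0359 and 0.0431). Ccne1 kept the threshold only without wild-type library 2 and Coil only without knockout library 3 (otherwise 0.0530 to 0.110 and 0.0747 to 0.109). Srrt (ARS2), which links the cap to 3′ end formation, was lower by a log2 fold change of -0.69 (adjusted p 0.0180 in edgeR, SE 0.17). Without wild-type library 1 or 3 Ccne2 was at an adjusted p of 0.0534 to 0.0566, and without wild-type library 3 or knockout library 3 Srrt was at 0.0561 to 0.0617. Npat itself, the coactivator of histone genes, was at 106, 70.7 and 76.0 and at 73.4, 84.5 and 54.1 CPM, with overlap and a log2 fold change of -0.25 (adjusted p 0.474).

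Of 7 genes of histone mRNA decay, 1 was lower and 1 higher past the threshold (14.3% each, against 10.7% and 19.4% of all genes), which is near those shares. Eri1, the exonuclease that binds the stem-loop and trims it, was at 131, 83.0 and 128 CPM in wild type and at 34.8, 51.2 and 52.6 CPM in knockout libraries. Its groups lay apart as those of Slbp did, with a log2 fold change of -1.30 (adjusted p 0.00923 in edgeR, SE 0.26), held without any single library. Tut4, an enzyme that adds uridines to RNA ends, was at 72.8, 132 and 63.9 and at 250, 166 and 160 CPM, a log2 fold change of 1.10 (adjusted p 0.0394 in edgeR, SE 0.33). It lost the threshold without wild-type library 1 or 3 or any knockout library (adjusted p 0.0605 to 0.123). Lsm1, a subunit of the decay complex, had -0.54 (adjusted p 0.108).

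Of 21 histone chaperones and assembly factors, 1 was lower (4.76%, under the 10.7% of all genes) and 0 higher (against 19.4%) past the threshold. At an unadjusted p below 0.05, 7 of the 21 were lower and 0 higher, against 3197 and 4591 of all 18375 genes. The median over the 21 was -0.46. Asf1b, which hands H3 and H4 to the assembly machinery in dividing cells, was at 81.0, 52.4 and 75.6 CPM in wild type and at 16.3, 26.8 and 40.4 CPM in knockout libraries. The log2 fold change was -1.32 (adjusted p 0.0273 in edgeR, SE 0.35), and it lost the threshold without wild-type library 1 or 3 or knockout library 1 or 2 (0.0558 to 0.0816). Its relative Asf1a and the FACT subunit Ssrp1 had -0.79 and -0.85 (adjusted p 0.0779 and 0.0825). Without knockout library 2 Asf1a passed, and without wild-type library 2 Ssrp1 did (adjusted p 0.0308 and 0.0363).

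Replication-independent histone variants, which mostly have ordinary poly(A) mRNAs and are made outside S phase as well, moved in both directions. Of 11, 3 were higher and 3 lower past the threshold (27.3% each, against 19.4% and 10.7% of all genes). H1f0 (H1.0), the linker histone known from resting and differentiating cells, was at 87.5, 70.0 and 75.2 CPM in wild type and at 316, 420 and 468 CPM in knockout libraries. The groups lay far apart and the log2 fold change was 2.37 (adjusted p 0.000532 in edgeR, SE 0.22), opposite to the H1 genes of the clusters. H2afy (macroH2A1) rose from 178 ± 34.2 to 498 ± 71.2 CPM (SD, n = 3 each, log2 fold change 1.48, SE 0.22, edgeR adjusted p 0.00273), and H2afy2 (macroH2A2) by 2.31 (adjusted p 0.0213). Cenpa, the H3 variant of centromeres, fell from 203 ± 12.6 to 94.6 ± 15.9 CPM (log2 fold change -1.10, SE 0.19, edgeR adjusted p 0.00474). H2afz (H2A.Z) was at 754, 600 and 664 and at 427, 429 and 441 CPM, a log2 fold change of -0.64 (adjusted p 0.0249 in edgeR, SE 0.17), and H2afj had -0.93 (adjusted p 0.0312). The call of H2afz was lost without wild-type library 1 or 3 or any knockout library (adjusted p 0.0593 to 0.0756), that of H2afj without library 1 or 3 of either group (0.0525 to 0.107) and that of H2afy2 without library 3 of either group (0.0715 to 0.0717). H1f0, H2afy and Cenpa held without any single library.

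The H3.3 genes differed from each other. H3f3a was at 773, 735 and 897 CPM in wild type and at 768, 786 and 801 CPM in knockout libraries, with overlap and a log2 fold change of -0.03 (adjusted p 0.906), which turned to 0.05 without wild-type library 3. H3f3b was at 2220, 1420 and 4320 CPM and at 1060, 1050 and 1320 CPM. All knockout values of H3f3b lay below all wild-type values, but the wide spread of the wild type left a log2 fold change of -1.21 (adjusted p 0.0513 in edgeR, SE 0.39) short of the threshold. It was -1.52 and passed without wild-type library 2 (adjusted p 0.0126), and -0.67 without wild-type library 3. H2afx (H2A.X), whose mRNA is known in a stem-loop and a poly(A) form, was at 189, 61.3 and 152 and at 44.6, 76.6 and 77.6 CPM, with overlap and a log2 fold change of -1.02 (adjusted p 0.108), and passed without wild-type library 2 at -1.36 (0.0143).

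Genes of DNA replication were lower in part as well. Of 34 S phase genes, 13 were lower (38.2%, against 10.7% of all genes) and 0 higher (against 19.4%) past the threshold. At an unadjusted p below 0.05, 0 were higher, and the median log2 fold change was -1.12. Rrm2, a subunit of the enzyme that makes deoxynucleotides, was at 221, 84.3 and 208 CPM in wild type and at 15.0, 20.7 and 44.0 CPM in knockout, a log2 fold change of -2.69 (adjusted p 0.00800 in edgeR, SE 0.52). Tk1, thymidine kinase, was at 167, 94.6 and 157 and at 18.2, 33.0 and 50.3 CPM (-2.04, SE 0.40, edgeR adjusted p 0.00864). Rfc3, of the clamp loader, was at 115, 77.6 and 105 and at 33.7, 48.8 and 40.8 CPM (-1.27, SE 0.23, edgeR adjusted p 0.00645). In these 3 genes the groups lay apart. Summed over the list, the level was 6890, 3560 and 5590 CPM in wild type and 1490, 3270 and 3200 CPM in knockout. Wild-type library 2 came close to knockout libraries 2 and 3 in this sum, whereas its short-ended histone sum of 132 CPM lay above that of wild-type library 1. The count of companion genes lower past the threshold over all 7 lists was 23, and it was 8 without wild-type library 1, 9 without wild-type library 3 and 14 without knockout library 1. The share of all genes that were lower fell as well, from 10.7% to 5.99%, 5.61% and 6.05%.

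Markers of other cell types moved with these results, and their part in them was not tested. All 8 erythroid markers were lower past the threshold, and summed to 12200, 5270 and 9960 CPM in wild type and 595, 116 and 366 CPM in knockout, with wild-type library 2 the lowest of its group as for the long-ended members. None of the 8 was at 0 in a library. All 5 B cell markers, 4 of 5 T and NK cell markers, 4 of 5 megakaryocyte and platelet markers and 2 of 5 stroma and endothelium markers were higher past the threshold. These lists summed to 62.9 to 123, 11.1 to 16.4, 1860 to 2450 and 9.68 to 26.3 CPM in knockout and to 0.959 to 4.70, 0.0464 to 0.530, 95.0 to 158 and 4.21 to 5.47 CPM in wild type. Ebf1 and Pax5 of the B cell list, Cd3g, Cd3d, Ncr1 and Klrb1c of the T and NK cell list and Lepr of the stroma list were at 0 in at least 1 library. Of 7 myeloid progenitor markers, which the label of leukemia cells calls for, all were read in every library at 498 to 1800 CPM summed in wild type and 1860 to 2110 CPM in knockout. Among them Kit, Cd34 and Myb were higher and Elane lower past the threshold.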

How the data were processed

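RNA-seq had been performed on 3 AE9a-Ddit4+/+ and 3 AE9a-Ddit4-/- samples, grouped by the labels. The authors deposited a table of counts per gene, whole numbers with no scaling. Submitters' processing notes name GRCm38 and mm10, while aligner, counting tool, annotation and use of strand are not given in the sources used here. Totals were 62141558 to 72717681 counts, and low values piled up at multiples of 4 (the values 4, 8 and 12 occurred 1.4 to 1.62 times as often as 2, 6 and 10), so the fragments behind a count are unknown. A spreadsheet had turned 27 symbols into dates, and these were restored.

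All genes were tested in R 4.3.3 with edgeR 4.0.16 (filterByExpr, here 0.155 CPM in 3 libraries, TMM scaling, robust glmQLFit and glmQLFTest, genotype the sole term) and Benjamini-Hochberg adjustment over 18375 genes, which was tested on simulated data. The threshold was an adjusted p of 0.05. SE is the absolute log2 fold change over the square root of F. Positions, exon lengths and transcripts came from GENCODE (GRCm38) and promoters from RefSeq. A genome was not used here, so the stem-loop was searched in transcripts alone. Members and lists were chosen with earlier results of these data known. Named were, per histone, the 3 members with the highest mean CPM and the 2 with the largest change past the threshold, and, per companion list, the 3 genes with the smallest p, with Slbp, Npat and 5 variants in addition. Other members and companion genes named were chosen after their values were seen. Tut7 and Tut4 were listed under older symbols. The 15 alternatives changed scaling, filter, threshold, test (DESeq2 1.42.0) or libraries.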

Additional observations from a re-analysis of the deposited data

How the results depend on the processing

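The direction of the members as a group held, and many single calls did not. The median log2 fold change of the tested members stayed negative under all 15 alternatives (-1.39 to -0.90 when a library was left out). The log2 ratio of the summed level was negative in the 10 alternatives that change it (-1.08 to -0.58 when a library was left out). No member was higher past the threshold under any alternative. The 11 members lower past the threshold were 2 at an adjusted p below 0.01 (3.28%, against 3.87% of all genes), 7 with no low-count filter (10.6% against 6.21%), 23 with the DESeq2 Wald test (38.3% against 15.0%) and 3 to 9 when a library was left out. The companion genes lower past the threshold, 23 in all, were 5 at an adjusted p below 0.01 and 8 to 31 when a library was left out. The 4 that were higher were 2 at an adjusted p below 0.01 and 2 to 4 when a library was left out. A stricter threshold lowers such counts by construction, and for the others the cause was not tested. With the replicate number as a term (replicate block), 3 members (4.92%, against 4.28% of all genes) and 6 companion genes were lower. Same-numbered libraries did not deviate together from their group means (correlations of -0.165, -0.194 and -0.0495, against -0.0278 to 0.179 for the other pairs). No pairing by number was thus visible, though with 3 libraries in each group a weak one could be missed. Among the genes recomputed singly, which were those named by rule and Hist1h2bb, Ccne1, Coil, H2afj and H2afy2, changes of sign were those of Hist3h2a with library totals alone (-0.04) and with no low-count filter (-0.03), and when a library was left out (-0.48 to 0.77, negative without wild-type library 2 and without knockout library 1 or 3, each of the latter at -0.03). Hist2h2be ranged from -0.44 to 0.24 when a library was left out, positive without wild-type library 3. Malat1 was at 0.01 with a minimum of 10 counts in each library, at 0.03 in the replicate block and at -0.32 to 0.40 when a library was left out, positive without wild-type library 3 or knockout library 2 (0.04). H3f3a was at 0.03 with that minimum and at -0.09 to 0.05 when a library was left out, positive without wild-type library 3. None of these was past the threshold. The depth limits members at about 1 CPM, where single libraries hold few counts.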
